A study of Danio rerio with 2 samples.

Results

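Broad domains bound by RNA polymerase II (Pol II) are described here, taken from a chromatin immunoprecipitation (ChIP-seq) of zebrafish embryos at 4 h post-fertilization (hpf). A domain is a Pol II peak at least 10000 bp wide that lies on an assembled chromosome other than chromosome 4. This rule took 498 of the 20243 peaks in the list, and 498 of the 16718 peaks on the 24 chromosomes it covers. Another 56 peaks of this width lay on chromosome 4 and 5 on unplaced scaffolds. The immunoprecipitate came from untreated WT Tubingen embryos and was made with an antibody to RNA pol II (8WG16), and it was set against input chromatin of the same strain and stage, taken without antibody. Whole embryos were pooled, so every value is an average over all cell types of the embryo. The input enters only through the peak call, and the list was called once from pooled replicates, so no value below has a replicate check.

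As background, Pol II is recruited to promoters, where it often pauses, and then travels along the gene body to a termination zone beyond the 3′ end. The antibody recognises the repeated tail of the largest Pol II subunit, above all in its weakly phosphorylated form, which is most abundant at promoters. Zebrafish embryos start to transcribe many genes of their own genome shortly before this stage, during zygotic genome activation. A peak is a stretch in which immunoprecipitated reads exceed the local background, and its summit is the position that the peak call marks as highest. A wide peak is therefore a long stretch called as 1 piece. Gaps inside it may be bridged where they are shorter than 210 bp, the smallest space between peaks on the assembled chromosomes. No genome or annotation of the build used for the peaks (GRCz10) was used here, so domains are given by position, with no gene, strand or sequence. Left and right mean lower and higher coordinates, counted from 1.

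The domains were chosen by their width, and the score and summit come from the same peak call, so all values are given as a description with no test. The peak score was read as 10 times the highest −log10 q inside the peak, and its lowest value in the list was 20. This reading rests on that lowest value and the authors' stated threshold, since the list does not name the score's unit. Under it, the score measures significance and not fold enrichment. The list also does not state whether the summit marks the highest significance or the most reads. Intervals are exact 95% intervals that cover counting error only, and domains that lie close together are not independent.

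Most domains were little wider than the limit and a few were far wider. The median width was 13590 bp (quartiles 11552.5 and 17622.5 bp), and the widest reached 99340 bp. Between 10 and 12 kb there were 151 domains, between 12 and 15 kb 154, between 15 and 20 kb 104, and between 20 and 30 kb 67. Between 30 and 50 kb there were 19 domains, and 3 were wider still. Together the domains covered 7.88 Mb, or 24.8% of the 31.8 Mb inside peaks on the 24 chromosomes, although they made up 2.98% of the peaks. The 939 peaks of 5 to 10 kb covered 20.5%.

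The limit of 10 kb fell in a continuous range of widths. The members just inside it measured 10000 bp (chromosome 5, 21563401 to 21573400, score 4686), 10010 bp (chromosome 19, 35853821 to 35863830, score 814) and 10020 bp (chromosome 21, 13124871 to 13134890, score 2547). The peaks just outside it measured 9990 bp (chromosome 8, 45742451 to 45752440, score 1259) and 9980 bp on chromosome 18 at 3041411 to 3051390 (score 556) and at 39130991 to 39140970 (score 544). Their scores overlapped with those of the members just inside.

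Domain scores lay above those of narrower peaks at the median, but they spread widely at each width. The median domain score was 1084.5 (95% interval of the median 972 to 1231), against 457 (409 to 500) for peaks of 5 to 10 kb and 69 (68 to 70) for narrower peaks on the same chromosomes. Of the 1000 highest scoring peaks of these chromosomes, 303 were domains, and of the 74 peaks above 10000, 33 were. The highest score, 312162, belonged to a peak under 5 kb, while the highest domain score was 34958. At the other end, 40 domains scored 300 or less and 93 scored below the median of the 5 to 10 kb peaks. Within the domains, Spearman's rho between width and score was 0.26 over 498 peaks, and it was 0.22 over the 939 peaks of 5 to 10 kb. These points share 1 list called on pooled replicates, and both measures come from the same peak call. Median scores by width were 864 at 10 to 12 kb, 976 at 12 to 15 kb, 1093 at 15 to 20 kb, 1423 at 20 to 30 kb and 2935 at 30 to 50 kb. The spread within 1 class was far larger than these steps, such as 116 to 30290 at 10 to 12 kb.

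**Figure D1:**
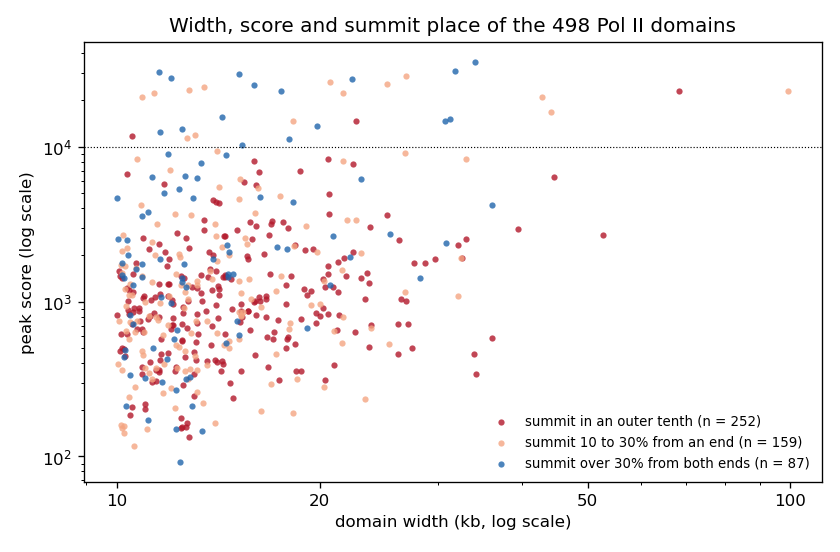
Width (x axis, kb, log scale) and peak score (y axis, log scale) of the 498 Pol II domains, 1 point each, coloured by the place of the summit; the dotted line marks a score of 10000. Of the 33 domains above the line, 3 have their summit within 10% of the width from an end, and scores spread widely at every width.

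The Pol II summit lay close to an end of the domain in many cases. It fell within 10% of the domain's width from the nearer end in 252 of 498 domains (50.6%, 95% interval 46.1 to 55.1), here called end-summit domains. These outer parts make up 20% of the width. In 87 domains (17.5%, 14.2 to 21.1) the summit was more than 30% of the width from both ends, and in the remaining 159 it lay between. The left and the right end were used about equally, with 121 summits (24.3%) within 10% of the left end and 131 (26.3%) within 10% of the right end. The same share was 34.5% (31.5 to 37.6) for peaks of 5 to 10 kb and 5.16% (4.81 to 5.52) for peaks under 5 kb. In those narrow peaks the place has limited meaning, since their median summit lay only 240 bp from an end.

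**Figure D2:**
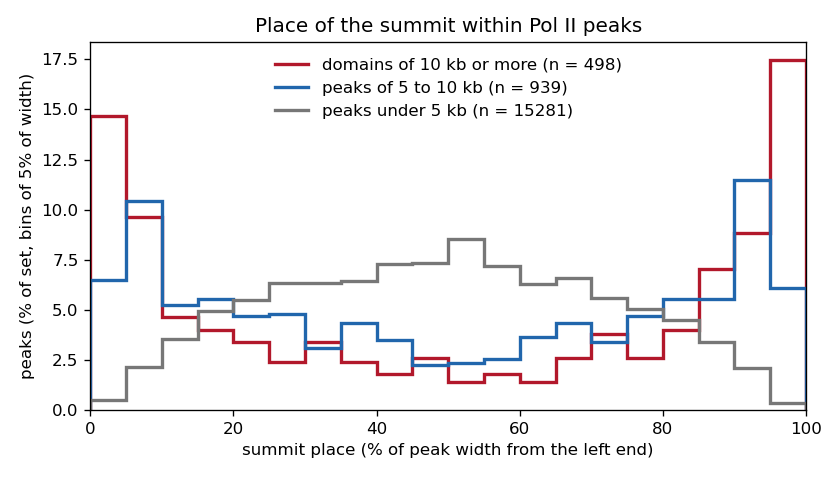
Place of the summit along the peak (x axis, % of peak width from the left end, bins of 5%) against the share of each set (y axis, %), for 498 domains, 939 peaks of 5 to 10 kb and 15281 peaks under 5 kb. Domain summits pile up at both ends (24.3% and 26.3% in the outer 10% on the left and right), while summits of peaks under 5 kb are most frequent near the middle.

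In base pairs, the summit lay a median of 1420 bp (1265 to 1640) from the nearer end and 11855 bp (11365 to 12365) from the farther end. For peaks of 5 to 10 kb the median to the nearer end was 1175 bp (1065 to 1295). The distance to the farther end is the rest of the width and follows from the choice by width. Among domains of 10 to 12, 12 to 15, 15 to 20 and 20 to 30 kb the median distance to the nearer end was 1370, 1390, 1395 and 1285 bp. It was 5455 bp in the 19 domains of 30 to 50 kb. No domain had its summit closer than 275 bp to an end, 118 (23.7%) had it within 500 bp and 194 (39.0%, 34.6 to 43.4) within 1 kb. For peaks of 5 to 10 kb these shares were 27.2% within 500 bp and 44.3% (41.1 to 47.5) within 1 kb, so in base pairs the domains did not have the larger share near an end. The share of end-summit domains was 43.0% (35.0 to 51.3) at 10 to 12 kb, 50% (41.8 to 58.2) at 12 to 15 kb, 57.7% (47.6 to 67.3) at 15 to 20 kb, 59.7% (47.0 to 71.5) at 20 to 30 kb and 42.1% (20.3 to 66.5) at 30 to 50 kb. The intervals of these classes overlap.

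The place of the summit differed with the score, with the highest shares of end summits at intermediate scores. End summits made up 35.0% (20.6 to 51.7) of the 40 domains scoring 300 or less, 59.5% (52.1 to 66.5) of the 190 domains scoring above 300 and up to 1000, and 56.2% (48.6 to 63.7) of the 176 above 1000 and up to 3000. They made up 39.0% (26.5 to 52.6) of the 59 domains above 3000 and up to 10000. Of the 33 domains above 10000, 3 were end-summit domains (9.09%, 1.92 to 24.3). Those 3 lay on chromosome 2 (58654371 to 58664880, score 11740), chromosome 5 (42617881 to 42686190, score 22799) and chromosome 17 (23346611 to 23369250, score 14585). Counting 1 domain for each group of neighbours within 50 kb left 3 of 24 (12.5%, 2.66 to 32.4). Leaving out chromosomes 7 and 25, which held 15 of the 33, left 3 of 18 (16.7%, 3.58 to 41.4). Peaks of 5 to 10 kb also had their highest shares at intermediate scores, with 24.1%, 42.3%, 38.7% and 34.0% in the same classes up to 10000. Among the 12 peaks of 5 to 10 kb above 10000, 0 had an end summit, with an upper 95% limit of 26.5%.

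The 10 highest scoring domains all had their summit well inside. On chromosome 25, a domain of 33960 bp (35771501 to 35805460) scored 34958 and had its summit at 35793856, or 65.8% of the width from the left. Next to it, a domain of 11540 bp (35809771 to 35821310) scored 30290 with its summit at 51.6%. The only peak between these 2 scored 109 and lay 580 bp and 1650 bp from them. Further to the left, 3 more of the 10 (34536621 to 34568370, 34589581 to 34611910 and 34624911 to 34650090) scored 30586, 27377 and 25533, with summits at 49.2%, 56.9% and 27.3%. The scores of these 5 chromosome 25 domains thus lay between 25533 and 34958.

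Chromosome 7 held 3 of the 10 highest scoring domains, within positions 6202421 to 6335090. They measured 26890, 12030 and 15160 bp and scored 28401, 27880 and 29350, with summits at 71.5%, 42.9% and 30.3% of the width. The last 2 were neighbours of a further domain at 6299781 to 6312560 that scored 23260. The remaining 2 of the 10 lay on chromosome 19 (43522061 to 43542770, score 26260, summit at 29.2%) and chromosome 22 (18506441 to 18522420, score 24891, summit at 59.2%). The chromosome 22 domain had no other peak for 191.66 kb to its left. Domains above 10000 were found on 13 of the 24 chromosomes, 9 of them on chromosome 7 and 6 on chromosome 25.

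The 10 widest domains were more varied in score and summit. The widest, on chromosome 5 (42518311 to 42617650), scored 22729 and had its summit 26185 bp from the right end. The next, 68310 bp wide, began 230 bp further on (42617881 to 42686190) and scored 22799, with its summit 2895 bp from the right end. Both therefore had the summit on the right, and 167.65 of the 167.88 kb from the start of one to the end of the other was inside a domain.

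Of the other 8 widest domains, 5 were end-summit domains. On chromosome 19, a domain of 52680 bp (12107881 to 12160560) scored 2684 and had its summit 2265 bp from the right end, and the next peak on that side lay 112.66 kb away. The mirror image was seen in a domain of 39330 bp on the same chromosome (40438621 to 40477950, score 2935). There the summit was 415 bp from the left end, with no peak for 446.63 kb on the left and one at 260 bp on the right.

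A domain of 44500 bp on chromosome 14 (31478121 to 31522620, score 6325) also had its summit 415 bp from an end, here the right one. The chromosome 22 domain of 36000 bp (6959731 to 6995730) scored 585, with its summit 665 bp from the right end. On chromosome 17, a domain of 34080 bp (27746091 to 27780170) scored 339, the lowest of the 10 widest, and its summit lay 2775 bp from the left end. The remaining 3 of the 10 had their summit well inside, 11535 bp from an end on chromosome 7 (22513231 to 22557290, score 16782), 10055 bp on chromosome 3 (47812631 to 47855440, score 20952) and 14125 bp on chromosome 7 (23796891 to 23832870, score 4185).

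**Figure D3:**
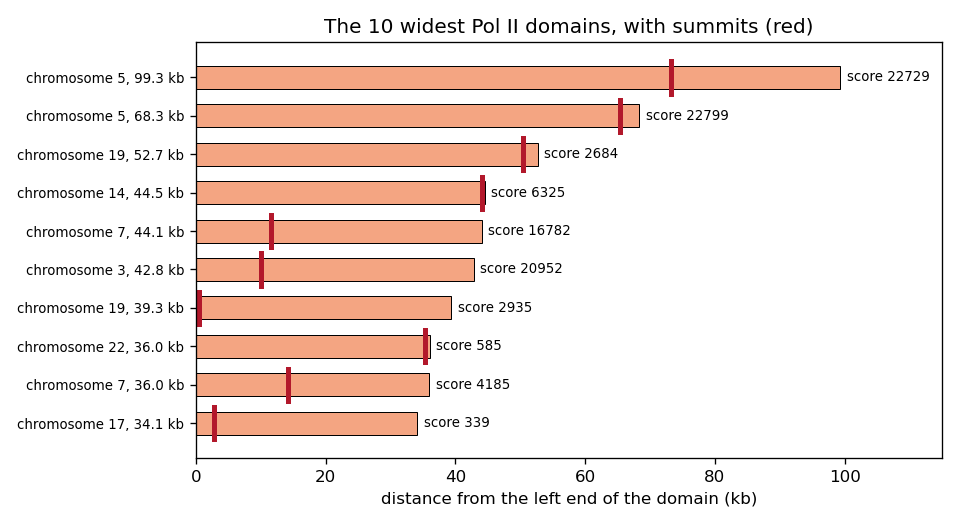
The 10 widest Pol II domains as bars from their left end (x axis, kb), widest at the top, with the summit as a red line and the score beside each bar. Of the 10, 6 have the summit within 10% of the width from an end, such as 415 bp from the left end in the chromosome 19 domain of 39.3 kb.

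Most of the weakest domains had other peaks close by. The lowest scores were 92 (chromosome 17, 10421031 to 10433410), 116 (chromosome 10, 17427201 to 17437800) and 134 (chromosome 16, 31818911 to 31831710). Each had other peaks on both sides, at 640 and 540 bp, 1530 and 660 bp, and 840 and 1640 bp. In these 3 cases at least 1 of the neighbours scored more than the domain itself. Of the 40 domains scoring 300 or less, 34 (85.0%) had a peak within 1 kb beyond the end farther from the summit and 25 (62.5%) beyond the nearer end. For the 176 domains above 1000 and up to 3000 these numbers were 69 (39.2%) and 25 (14.2%), and for the 33 above 10000 they were 15 (45.5%) and 12 (36.4%). The shares thus did not fall steadily with score. Among peaks of 5 to 10 kb scoring 300 or less they were 71.3% and 55.6%, so close neighbours of weak peaks were not particular to the domains.

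Other Pol II peaks lay beside most domains. A peak within 1 kb was present for 310 of 498 domains (62.2%, 95% interval 57.8 to 66.5), against 68.6% (65.5 to 71.5) of peaks of 5 to 10 kb and 52.5% (51.7 to 53.3) of narrower peaks. Within 10 kb it was 396 domains (79.5%, 75.7 to 83.0), against 85.7% and 82.4%. The remaining 102 domains had no peak within 10 kb. They had a median score of 1430.5, against 970 for the others, and 57 of them (55.9%, 45.7 to 65.7) were end-summit domains.

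These neighbours were not spread evenly over both sides of a domain. Beyond the end nearer the summit, called the summit side, 120 of 498 domains (24.1%, 20.4 to 28.1) had a peak within 1 kb. Beyond the other end, the far side, 257 (51.6%, 47.1 to 56.1) had one. Both sides had a peak in 67 domains, the summit side alone in 53, the far side alone in 190, and neither in 188. The median space to the next peak was 26810 bp on the summit side and 890 bp on the far side. Within 10 kb there were 375 peaks on the summit sides and 757 on the far sides, where a peak beside 2 domains counts for each. The distance from summit to end is part of how the sides are named, and neighbours, summit and domain bounds all come from the same call, so this is a description of the list.

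The unevenness followed the place of the summit. In end-summit domains, 27 of 252 (10.7%, 7.18 to 15.2) had a peak within 1 kb on the summit side and 139 (55.2%, 48.8 to 61.4) on the far side, and the median spaces were 52305 bp and 800 bp. Where the summit lay between 10% and 30% of the width, the shares were 32.7% (25.5 to 40.6) and 52.8% (44.8 to 60.8). Where it lay in the middle, they were 47.1% (36.3 to 58.1) and 39.1% (28.8 to 50.1), so their intervals overlapped. The far side had the larger share whether the summit lay to the left or to the right. The summit side and far side shares were 24.2% and 55.3% in the 244 domains with the summit to the left, and 24.0% and 48.0% in the 254 with it to the right. Peaks of 5 to 10 kb had shares of 31.3% (28.4 to 34.4) and 56.5% (53.3 to 59.7), so the unevenness was also found there.

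The higher coverage on the far side extended over several further intervals. Beyond end-summit domains, other peaks filled 10.4% of the sequence at 1 to 2 kb on the summit side and 48.4% on the far side. At 5 to 10 kb the values were 8.43% and 33.1%, at 10 to 20 kb 4.95% and 23.5%, and at 20 to 30 kb 4.61% and 13.8%. At 30 to 50 kb they were 5.26% and 6.75%, and at 50 to 100 kb 3.02% and 4.21%. Over the 24 chromosomes as a whole peaks filled 2.52%. In the first 1 kb beyond end-summit domains the values were 5.92% on the summit side and 30.3% on the far side. No 2 peaks on the assembled chromosomes are closer than 210 bp, so the start of this interval is always empty. Whether that accounts for the lower values was not tested. Beyond the other 246 domains the sides differed less, with 17.6% on the summit side and 30.6% on the far side at 5 to 10 kb, and 7.59% and 6.99% at 30 to 50 kb. The 324 peaks of 5 to 10 kb with an end summit had 16.7% and 53.6% at 1 to 2 kb. At 10 to 20 kb they had 9.60% and 22.7%, so the higher far-side coverage was not particular to the domains.

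**Figure D4:**
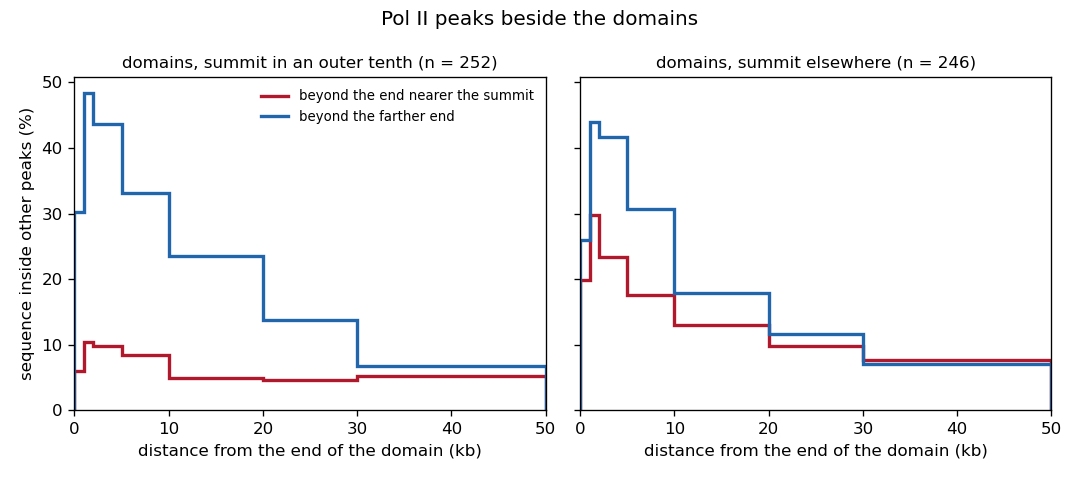
Share of the sequence inside other Pol II peaks (y axis, %) by distance from the end of the domain (x axis, kb), beyond the end nearer the summit (red) and the farther end (blue), for 252 end-summit domains and 246 other domains. At 10 to 20 kb the end-summit domains have 4.95% on the summit side and 23.5% on the far side, and the lines approach each other at 30 to 50 kb.

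The neighbouring peaks were mostly narrow, but less often so than peaks in general. On the 24 chromosomes 15281 of 16718 peaks were under 5 kb wide. Of the 757 peaks within 10 kb on the far sides, 611 (80.7%) were under 5 kb wide, 98 were 5 to 10 kb wide and 48 were domains themselves. On the summit sides 327 of 375 (87.2%) were under 5 kb. The median score was 86 on both sides, against 69 for all peaks under 5 kb and 77 over the whole list. On both sides, the closest peaks were the widest and strongest. Far-side medians were 2505 bp and 145.5 within 1 kb, 1770 bp and 103 at 1 to 2 kb, 1035 bp and 71.5 at 2 to 5 kb, and 1075 bp and 71 at 5 to 10 kb. Summit-side medians were 1810 bp and 121.5, 960 bp and 61, 975 bp and 75, and 1110 bp and 82 at the same distances. Within 10 kb, the nearest far-side peak scored less than its domain in 309 of 350 cases, and the summit-side one in 170 of 211. For peaks of 5 to 10 kb the far-side count was 586 of 727. Domains had a median score of 1084.5 against 69 for peaks under 5 kb, so a lower score was likely on either side. The nearest far-side peak had its own summit toward the domain in 161 of the 350 (46.0%, 40.7 to 51.4), an interval that includes an equal split.

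Followed outwards through spaces of 1 kb or less, both sides carried chains of peaks, the far side more often. A far-side chain was present in 257 domains, with a median of 2 peaks and at most 18. It extended a median of 5.83 kb beyond the domain, was 10 kb or longer in 84 domains and reached 100.96 kb in the longest. On the summit side, the 120 chains had a median of 1 peak and at most 12. Their median length was 3.555 kb, 22 were 10 kb or longer and the longest reached 68.54 kb. A domain next to another can be part of the other's chain, so the longest chains need not be made of narrow peaks. On chromosome 5, the far-side chain of the 68310 bp domain takes in the whole 99340 bp domain, 230 bp away.

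Some domains lay beside one another. Within 50 kb of another domain lay 101 of 498 (20.3%, 95% interval 16.8 to 24.1), in 39 pairs and 7 groups of 3 or more, with at most 4 in a group. The group with the most covered sequence was the pair on chromosome 5 described above. Next came 4 domains on chromosome 25 (34536621 to 34650090) that covered 90.59 of 113.47 kb and scored 22146 to 30586. On chromosome 17 (27706241 to 27800280), 4 domains covered 78.16 of 94.04 kb, but scored 147 to 1693. In that group the leftmost domain had the highest score and its summit 955 bp from its left end, with no peak for 28.99 kb beyond, and the scores of the next 3 were 360, 339 and 147 from left to right. Both groups of 4 thus covered like lengths with scores that do not overlap.

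In pairs of domains at most 10 kb apart, few had summits that faced each other. Of 35 neighbouring pairs at most 10 kb apart, the left domain had its summit to the left and the right domain to the right in 15 (42.9%, 26.3 to 60.6). The opposite arrangement, with both summits toward the space between the domains, was found in 2 (5.71%, 0.700 to 19.2). In the other 18 pairs both summits lay on the same side, 7 to the left and 11 to the right. Of the 67 pairs at most 100 kb apart, 24 (35.8%, 24.5 to 48.5) had their summits apart and 12 (17.9%, 9.61 to 29.2) facing. The interval of this last share includes an equal split over the arrangements. The pairs at most 10 kb apart are part of these 67. Domains in larger groups enter several pairs, so pairs are not independent. Pairs of narrower peaks were not counted.

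Domains were found on each of the 24 chromosomes, at 0.395 per Mb over all (exact Poisson 95% interval 0.361 to 0.431), where the length of a chromosome was taken as the end of its last peak. The highest densities were 0.595 per Mb on chromosome 19 (29 domains, 0.399 to 0.855), 0.561 on chromosome 22 (22 domains, 0.352 to 0.849) and 0.545 on chromosome 21 (25 domains, 0.353 to 0.804). The lowest were 0.159 on chromosome 9 (9 domains, 0.0726 to 0.301), 0.183 on chromosome 12 (9 domains, 0.0836 to 0.347) and 0.213 on chromosome 24 (9 domains, 0.0974 to 0.404). The interval lay below the value for all chromosomes in 2 of the 24 and above it in 1. The other chromosomes had intervals that included that value. Chromosomes were not tested against one another, so their order by density is a description only.

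**Figure D5:**
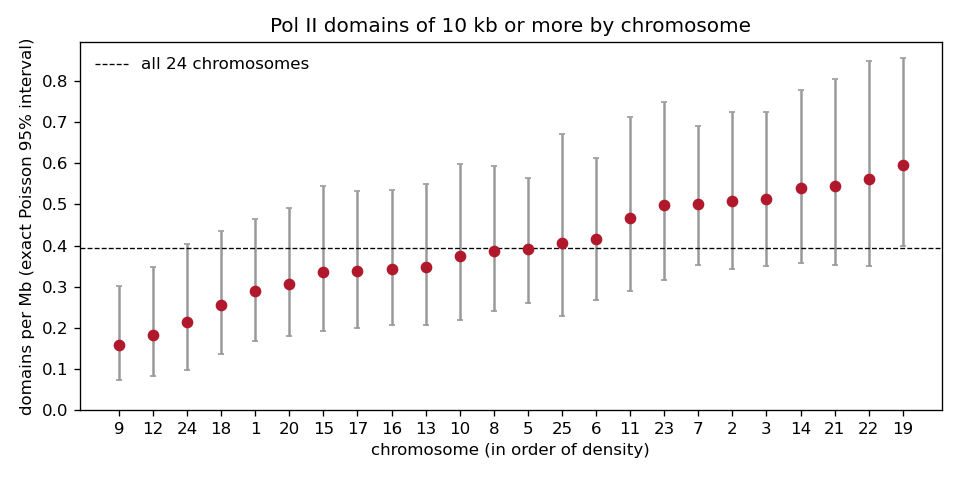
Domains per Mb (y axis) on each of 24 chromosomes, in order of density (x axis), as points with exact Poisson 95% intervals; the dashed line is the value over all 24. Chromosome 9 is lowest at 0.159 and chromosome 19 highest at 0.595, and the intervals of most chromosomes include the dashed line.

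Domains were also counted against the Pol II peaks of any width. As a share of the chromosome's peaks, domains made up 1.68% (0.772 to 3.17) on chromosome 12 and 1.80% (0.828 to 3.40) on chromosome 9, and 4.30% (2.88 to 6.16) on chromosome 14, 4.25% (3.01 to 5.82) on chromosome 7 and 4.18% (2.82 to 5.95) on chromosome 19. The share over all was 2.98% (2.73 to 3.25), and 1 of the 24 intervals excluded it. Chromosome 22 was high in domains per Mb but not in this share, with 2.71% (1.71 to 4.07). Domains held between 15.7% of the covered length on chromosome 24 and 32.8% on chromosome 7. The median domain score was lowest on chromosome 24, at 550, and highest on chromosome 7, at 1871. The share of end-summit domains was lowest on chromosome 25, with 4 of 15 domains (26.7%), and highest on chromosome 18, with 9 of 13 (69.2%), and its median over chromosomes was 50%. These 2 are the extremes of 24 small counts. On chromosome 25, 6 of the 15 domains scored above 10000, a class with few end summits.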

How the data were processed

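Pol II ChIP-seq of 4 hpf zebrafish embryos had 2 samples, an immunoprecipitate and an input, and only the first had a file used here. The authors aligned single-end reads to GRCz10 (Zv10) with Novoalign 2.8, placing reads with several equal positions at 1 of them at random, merged technical replicates with SAMtools, and called peaks once on pooled replicates and the input with a wrapper around MACS2. The random placement shares signal among copies of repeated sequence, so a domain inside repeats can stand for another copy. They deposited 1 integer score per peak and other fields for start, end and summit offset; fold enrichment, p and q hold 0 throughout. Depth is not given in the list, so precision was taken from numbers of peaks. The members, limits and classes were chosen with earlier results of these data known.

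Peaks of 10000 bp or more on assembled chromosomes other than chromosome 4 were taken, and the space to neighbours, the summit place (offset over width) and groups of domains within 50 kb were computed with pandas 2.3.3 and SciPy 1.17.1. Shares carry Clopper-Pearson and counts Poisson intervals; medians carry order-statistic intervals. The functions were tested on simulated domains with planted summits and neighbours. Regions named were the 10 widest and 10 highest scoring domains, the 3 lowest scoring, the 3 on each side of the width limit, the 3 domain groups covering most sequence, and the 3 chromosomes at each end of density. The split by summit side, the score classes and pairs were added after the data were seen, as were all further regions named.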

Additional observations from a re-analysis of the deposited data

How the results depend on the processing

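The alternatives for the sides of a domain, for domains above 10000 and for chromosomes, and those that kept 1 domain per group or left out high scores, were chosen after the data were seen. The domains numbered 733 with a limit of 8 kb, 193 with 15 kb, 714 with peaks merged within 500 bp and 554 with chromosome 4. Their share of covered length was 31.3%, 13.2%, 36.5% and 24.2% in the same order, and their median score 864 with 8 kb, 1410 with 15 kb and 819 with merging. End summits made up 57.0% with 15 kb, 56.4% with merging and 44.2% in domains above the median score. They made up 32.1% when end meant 5% of the width, 70.3% at 20%, and 39.0% within 1 kb. A neighbouring peak within 1 kb was found for 37.0% of domains with merging, which removes spaces up to 500 bp by construction, and 51.0% of those above the median score. Within 0.5, 2, 5 and 10 kb the share was 47.2%, 69.9%, 76.7% and 79.5%. Another domain within 50 kb was found for 26.5% with 8 kb, 9.84% with 15 kb and 10.8% above the median score, where fewer domains can be neighbours, and 12.9%, 15.1% and 24.9% had one within 10, 20 and 100 kb. On the summit side and far side, a peak within 1 kb was found for 11.6% and 29.4% with merging, 18.9% and 39.4% above the median score, and 19.3% and 45.2% with only neighbours scoring 50 or more. Within 2, 5 and 10 kb the summit side had 29.9%, 36.3% and 42.4% and the far side 60.2%, 67.3% and 70.3%. The far side had the higher share under all 11 alternatives compared. These share domains and windows, so they are not independent checks. Domains with the summit in the middle were not 1 of these settings, and there the shares were 47.1% on the summit side and 39.1% on the far side. Where no construction is named, the cause was not tested. Of the 75 values, 37 lay inside the 95% interval of the reported value. For counts this meant within 1.5 times it, and for the covered share within 0.5 percentage points. The numbers of domains with 8 kb, with merging and with chromosome 4 are among these 37. Some of the 95% intervals are wide. End summits made up 21.3% above a score of 5000, inside the 1.92 to 24.3 found above 10000. The first set includes the second, so the values are not independent. In the class above 3000 and up to 10000 the share was 39.0%. The ratio of domains per Mb on chromosome 19 to chromosome 9 was 3.75 (1.73 to 9.01). These chromosomes were picked as the extremes of the same counts. The interval does not allow for that choice, so it cannot show whether chromosomes differ. With 8 kb the ratio of the same 2 chromosomes was 2.38, with 15 kb 5.82 and with merging 3.16. No paired analysis was possible because both replicates entered 1 pooled call, which also means that leaving out a replicate was not an option. The authors scaled depth to the smaller replicate and set an option named nodup, but the number of reads and what that option did to duplicates were not analysed here, which limits the reading of the highest scores.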

Other observations

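Peaks of 10 kb or more that the rule left out also had many summits near an end. The 56 on chromosome 4, of which 37 lay beyond 30 Mb, had a median width of 12600 bp and a median score of 831, with scores from 278 to 129970. Their summit was within 10% of the width from an end in 37 (66.1%, exact 95% interval 52.2 to 78.2). A peak within 1 kb was present on the summit side of 4 and on the far side of 23. The 5 on unplaced scaffolds scored 574 to 16909, the widest measured 42660 bp, and 4 of them had an end summit.

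Domains were spread over the length of the chromosomes, with somewhat more in the middle. Of the 498, 136 (27.3%, 23.4 to 31.4) had their centre in the third of 5 equal parts of a chromosome, which held 21.4% of all peaks, and 83 to 101 lay in each other part. The median space between neighbouring domains was 1314 kb. The longest space was 17.98 Mb on chromosome 5 (42686191 to 60664920), and it started at the end of the second widest domain of the list. It held 191 narrower peaks, 9 of them 5 to 10 kb wide, of which the widest measured 9330 bp. A domain of 12090 bp on chromosome 1 (1 to 12090, score 783) began at the first base of the assembly, so its left end is also the end of the assembled sequence.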
